A study of Schizosaccharomyces pombe with 15 samples.

Results

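The change in gene expression of the fission yeast Schizosaccharomyces pombe 30 min after plasma irradiation was measured by RNA sequencing, with 3 libraries of irradiated cells set against 3 libraries of cells that were not irradiated. These 6 libraries are part of a series of 15, and the members described here are all the genes that passed an expression filter, 5214 of the 6998 in the count table. Both groups were of strain JY450, labelled wild type (wt), grown in YE, a rich yeast extract medium. Per the treatment protocol the cells were placed on a membrane filter lying on YE agar before plasma was applied. That protocol names both logarithmic and stationary phase, and neither the phase of these samples nor the plasma dose is given in the sources used here. The libraries of the treated group carry the label 30 min, and those of the other group the label no irradiation, with no time, so plasma and the time since handling cannot be told apart. The rest of the series holds libraries from 10 and 15 min after plasma, which share the same control libraries, and from cells given hydrogen peroxide. Each library is called here by its group and the letter a, b or c of its column. The labels describe the libraries of a group as biological replicates, and p-values reflect only how far these differ.

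Atmospheric-pressure plasma is a partly ionised gas that delivers reactive oxygen and nitrogen species to a surface. In fission yeast such oxidants are sensed by a phosphorelay that activates the mitogen-activated kinase Sty1, whose partner Atf1 with Pcr1 binds CRE-type promoter sites of a common set of stress genes, and by the peroxiredoxin Tpx1, which passes oxidation to the transcription factor Pap1. In growing cells ribosomal protein genes share a promoter element named the HomolD box, and forkhead factors and the G1/S factor MBF drive successive waves of transcripts through the division cycle.

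Library totals were 16691340, 19211766 and 17520986 counts at 30 min (a, b and c) and 20472557, 20556527 and 15457879 counts without irradiation. The share of counts in ribosomal RNA genes differed more between letters than between groups, at 1.02%, 0.742% and 0.22% at 30 min and 1.01%, 0.863% and 0.223% without irradiation. A chi-square per degree of freedom, on raw counts over all genes tested, measured how far libraries of a group differed. It was 60.16 for controls a and b, 79.1 for b and c and 29.58 for a and c. At 30 min it was 21.81 (a and b), 37.1 (a and c) and 14.18 (b and c). Control library b thus stood apart over all genes tested, and also in chaperone genes, as taken up beside those genes. It was the highest control in some other stress genes, such as ctt1 and gpx1, and not in others, such as gst2. Levels are given in the order a, b, c as CPM, which puts libraries on one depth after TMM, the trimmed mean scaling of edgeR. Where levels of different genes are compared, FPKM is used, the same value per kilobase of the gene's counted length. The libraries are of whole populations, in which fewer cells of a kind and less RNA per cell cannot be told apart. Changes are log2 fold changes of plasma 30 min over no irradiation ± SE, tested with edgeR's quasi-likelihood F-test and called at a Benjamini-Hochberg adjusted p under 0.05.

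At 30 min 1616 genes were higher (31.0% of those tested) and 1510 were lower (29.0%) than without irradiation, so 60.0% of the genes tested were called. Large changes were mostly increases, since 356 genes rose at least 2-fold (6.83%) and 111 fell at least 2-fold (2.13%). In 62.2% of the genes the 3 libraries of one group lay entirely above or below the 3 of the other. The median log2 fold change over all genes tested was -0.01. Scaling by total counts alone gave 1223 higher and 1619 lower, which puts 43% of the calls on the higher side in place of 51.7%, with a shift of the median of -0.0713. Counts of list members called, given below, are to be read against these shares.

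**Figure D1:**
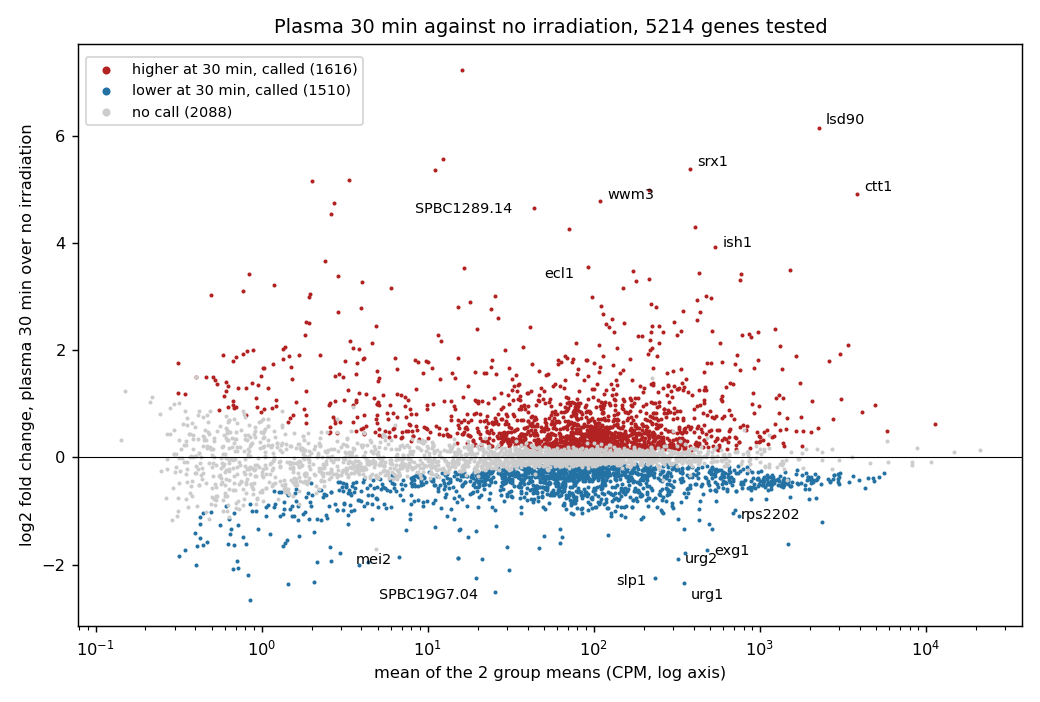
Log2 fold change of plasma 30 min over no irradiation (vertical axis) against the mean of both group means in CPM (horizontal, log axis), 1 point per gene, coloured by call. The largest increases, such as lsd90 at 6.14, are further from 0 than the largest decreases, such as SPBC19G7.04 at -2.51.

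The 12 largest increases and 12 largest decreases were taken among called genes with non-overlapping groups and a mean count of at least 50, leaving out non-coding, Tf2 and mitochondrial genes. Gene coordinates are those of the count table, whose genome build the submitters' processing notes name only as R64. That name belongs to the budding yeast genome, while 6824 of the 6852 genes matched to the S. pombe annotation ASM294v3 share a start or an end with it. The increases were led by lsd90 (SPBC16E9.16c, chromosome II, 1947985 to 1950255, minus strand), whose product is annotated only as protein Lsd90. It had 3241, 4974 and 5229.6 CPM at 30 min, against 37.4, 119 and 34 without irradiation (log2 change 6.14 ± 0.46, adjusted p = 2.75e-08). Every library at 30 min was far above every control, and control b was above controls a and c. Without that control library the log2 fold change was 6.99. The sulfiredoxin gene srx1 (SPBC106.02c, chromosome II, 376253 to 377036, minus strand), which restores over-oxidised peroxiredoxin, had 699, 754 and 779 CPM at 30 min, against 18.7, 18.1 and 17.2 without irradiation (log2 change 5.37 ± 0.09, adjusted p = 4.12e-15). Its libraries were close together in both groups. The catalase gene ctt1 (SPCC757.07c, chromosome III, 56654 to 58865, minus strand), whose enzyme splits hydrogen peroxide, had 6519.7, 7913 and 8035 CPM at 30 min, against 221, 331 and 199 without irradiation, a 29.9-fold increase. SPBC1289.14, annotated as an adducin, had 81.1, 85.4 and 85.2 CPM at 30 min, against 3.31, 3.77 and 2.83 without irradiation (log2 change 4.65 ± 0.15, adjusted p = 1.17e-11). SPAC637.03, an uncharacterized protein, had 674, 823 and 822 CPM at 30 min, against 35.5, 51.5 and 30.5 without irradiation (log2 change 4.30 ± 0.18, adjusted p = 8.01e-11).

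SPAC3G6.07, also uncharacterized, had 19, 20.8 and 25.2 CPM at 30 min, against 0.551, 0.713 and 0.251 without irradiation (log2 change 5.36 ± 0.27, adjusted p = 4.33e-10). The gene wwm3 had 181, 212 and 242 CPM at 30 min, against 8.54, 9.07 and 5.09 without irradiation (log2 change 4.78 ± 0.26, adjusted p = 8.97e-10). SPACUNK4.17, annotated as a dehydrogenase, had 24.3, 23.6 and 24.7 CPM at 30 min, against 0.276, 0.917 and 0.314 without irradiation (log2 change 5.56 ± 0.58, adjusted p = 8.06e-07), with 80.2% of its length shared with a non-coding RNA gene. The lowest library at 30 min was many times the highest control in each of these 3 genes. Without control library b the log2 fold change of SPACUNK4.17 was 6.36. The remaining 4 were SPAC22A12.17c, a dehydrogenase whose length is shared over 47% with a neighbour (4.99 ± 0.18), SPAC513.02 of the phosphoglycerate mutase family (4.26 ± 0.25), the nuclear envelope protein gene ish1 (3.92 ± 0.21) and ecl1, whose product extends chronological lifespan (3.54 ± 0.14). Because the counting set no strand option, reads from a gene and an overlapping partner cannot be told apart.

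**Figure D2:**
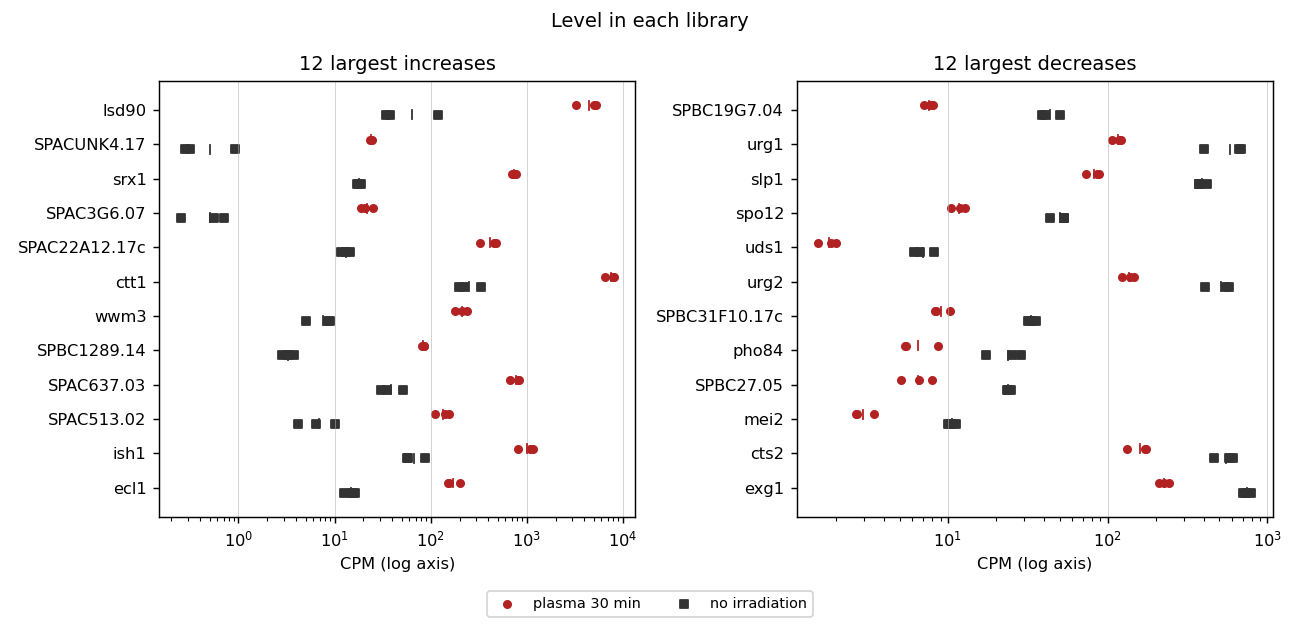
CPM on a log axis in each library for the 12 largest increases (left) and the 12 largest decreases (right), with plasma 30 min as red circles above no irradiation as black squares and short bars at the group means. Genes with overlapping groups were left out when the genes were chosen, and lsd90 and SPACUNK4.17 have 1 control library above the others.

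The CRE, the site read by Atf1 and Pcr1, was searched as TGACGT on both strands of the 250 bases before each gene's start in the RefSeq annotation (ASM294v3). It stood in 6 of the 12 largest increases and in 65 of the 293 protein-coding genes that were called and at least 2-fold higher (22.2%), against 285 of all 5144 promoters (5.54%). Of the 66 genes called and at least 2-fold lower, 4 held it (6.06%). A match is a description of the letters and was not tested for binding. The windows of 4 of the 12 that contain no other annotated gene are printed 5′ to 3′ on the strand of the gene, with the CRE in capitals, to show where it lies relative to the RefSeq start of genes that rose by log2 4.65 to 5.36.
ctt1 (chrIII:58834-59083, minus strand): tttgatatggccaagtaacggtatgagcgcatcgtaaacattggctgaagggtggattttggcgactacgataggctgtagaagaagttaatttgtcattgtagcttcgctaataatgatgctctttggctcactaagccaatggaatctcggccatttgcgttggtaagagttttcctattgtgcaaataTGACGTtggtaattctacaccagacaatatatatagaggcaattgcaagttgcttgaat
wwm3 (chrII:202031-202280, plus strand): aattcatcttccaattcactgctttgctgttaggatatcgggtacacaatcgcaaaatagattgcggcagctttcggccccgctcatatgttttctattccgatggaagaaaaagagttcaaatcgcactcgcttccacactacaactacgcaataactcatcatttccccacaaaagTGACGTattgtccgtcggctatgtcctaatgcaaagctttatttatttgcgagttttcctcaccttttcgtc
SPBC1289.14 (chrII:4411991-4412240, plus strand): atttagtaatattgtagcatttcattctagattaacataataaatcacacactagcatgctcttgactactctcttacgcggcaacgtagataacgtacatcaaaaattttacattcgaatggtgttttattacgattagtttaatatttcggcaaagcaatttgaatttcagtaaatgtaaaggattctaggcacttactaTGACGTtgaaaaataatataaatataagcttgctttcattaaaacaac
SPAC3G6.07 (chrI:5391975-5392224, plus strand): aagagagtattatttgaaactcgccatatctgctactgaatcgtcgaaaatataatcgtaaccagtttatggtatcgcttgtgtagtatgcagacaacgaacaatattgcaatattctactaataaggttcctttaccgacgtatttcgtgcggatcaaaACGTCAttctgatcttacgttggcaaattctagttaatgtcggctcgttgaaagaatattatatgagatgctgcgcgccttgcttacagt
The first base of the CRE lies 59 bases before the start in ctt1, 72 in wwm3, 48 in SPBC1289.14 and 90 in SPAC3G6.07, where the reverse strand carries the site. The RefSeq start lies inside the gene as counted in all 4, and in SPBC1289.14 the CRE does as well.

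**Figure D3:**
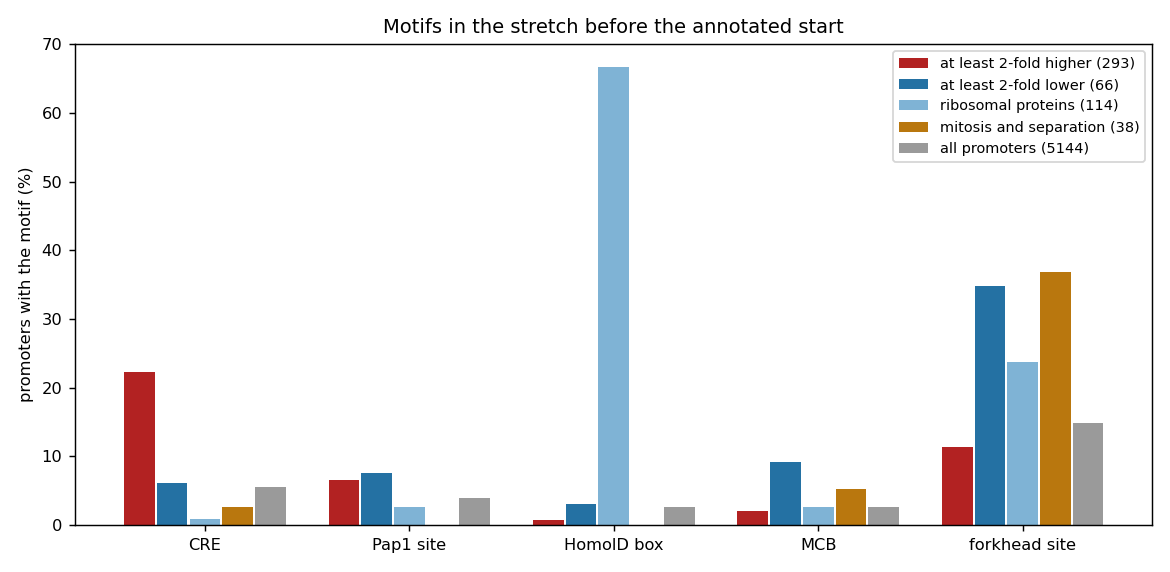
Share of promoters holding each motif at least once on either strand (vertical axis, %), by gene set, with all promoters in grey and the number of promoters of each set in the legend. Among the sets shown, the CRE is most frequent in genes at least 2-fold higher, the HomolD box in ribosomal protein genes, and the forkhead site in the mitosis and separation list, followed by genes at least 2-fold lower.

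Most genes for removing peroxide and superoxide rose: 19 of 26 tested were higher and 0 lower, with a median log2 fold change of 0.52 beside -0.01 over all genes. Without plasma 30 min a or control c 1 member was lower. All 5 catalase and peroxidase genes were higher. Beside ctt1, the glutathione peroxidase gene gpx1 had 1320.3, 1501 and 1467 CPM at 30 min, against 250, 396 and 219.7 without irradiation (log2 change 2.31 ± 0.18, adjusted p = 2.83e-08). The 2-Cys peroxiredoxin gene tpx1, both a peroxidase and the relay to Pap1, had 4434, 5208 and 4898 CPM at 30 min, against 1122, 1513 and 1205 without irradiation (log2 change 1.92 ± 0.14, adjusted p = 1.67e-08). All 3 irradiated libraries exceeded all controls in both genes. Per kilobase tpx1 was the most abundant at 30 min, with 6335 FPKM, ahead of ctt1 with 3386 and gpx1 with 1901 FPKM, whereas without irradiation the values were 1673 for tpx1, 113 for ctt1 and 384 FPKM for gpx1. The smallest increases of the 5 were those of bcp1 (0.56 ± 0.07) and pmp20 (0.48 ± 0.16), and the pmp20 call was lost without any one of plasma 30 min b or c or control a or c.

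In the thioredoxin system 4 of 7 genes rose. Thioredoxin reductase, trr1, which recharges thioredoxin with NADPH, had 1137, 1387 and 1367 CPM at 30 min, against 261, 266 and 279 without irradiation (log2 change 2.27 ± 0.17, adjusted p = 2.31e-08), with 70.3% of its length overlapped by another gene. Its cytoplasmic substrate gene trx1 had 1836, 1909 and 1945 CPM at 30 min, against 822, 1099 and 708 without irradiation (log2 change 1.11 ± 0.12, adjusted p = 1.21e-06). The mitochondrial thioredoxin gene trx2 was not called, with 92.9, 80.4 and 86.8 CPM at 30 min, against 105, 99.7 and 93.9 without irradiation (log2 change -0.20 ± 0.09, adjusted p = 0.0642). The libraries of trx1 and trr1 were apart upwards, while those of trx2 were slightly below the controls. Of the methionine sulfoxide reductases, which repair oxidised methionine, mxr2 rose (1.69 ± 0.07, with 71.8% of its length overlapped) and mxr1 was not called (0.01 ± 0.07, adjusted p = 0.899).

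The glutathione branch had 5 of 6 members higher. Glutathione synthesis rose modestly, by 0.59 ± 0.05 for gcs1, the first enzyme, and 0.31 ± 0.05 for gsa1, the second, which another gene overlaps over 50.6%. The glutathione reductase gene pgr1 rose by 0.19, a call lost with total counts and without any one of plasma 30 min b or c or control a or c. The transferases moved further. The gene gst2 had 2078, 2163 and 1999 CPM at 30 min, against 397, 355 and 431 without irradiation (log2 change 2.40 ± 0.13, adjusted p = 6.9e-10). The related gst3 had 349.7, 392 and 392 CPM at 30 min, against 63.7, 84.2 and 59.5 without irradiation (log2 change 2.45 ± 0.13, adjusted p = 8.91e-10). The third, gst1, was low in every library and not called. Of 5 glutaredoxin genes grx1 (1.26 ± 0.18) and grx4 (0.38 ± 0.06) rose and the other three were not called. The manganese superoxide dismutase gene sod2 had 384, 397 and 395 CPM at 30 min, against 201, 257 and 207 without irradiation (log2 change 0.82 ± 0.08, adjusted p = 6.99e-07), and ccs1, the chaperone that loads copper onto the other dismutase, rose by 0.39 ± 0.06. The gene of that other dismutase, sod1, rose by 0.28, a call lost without any one of plasma 30 min b or c or control a or c.

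**Figure D4:**
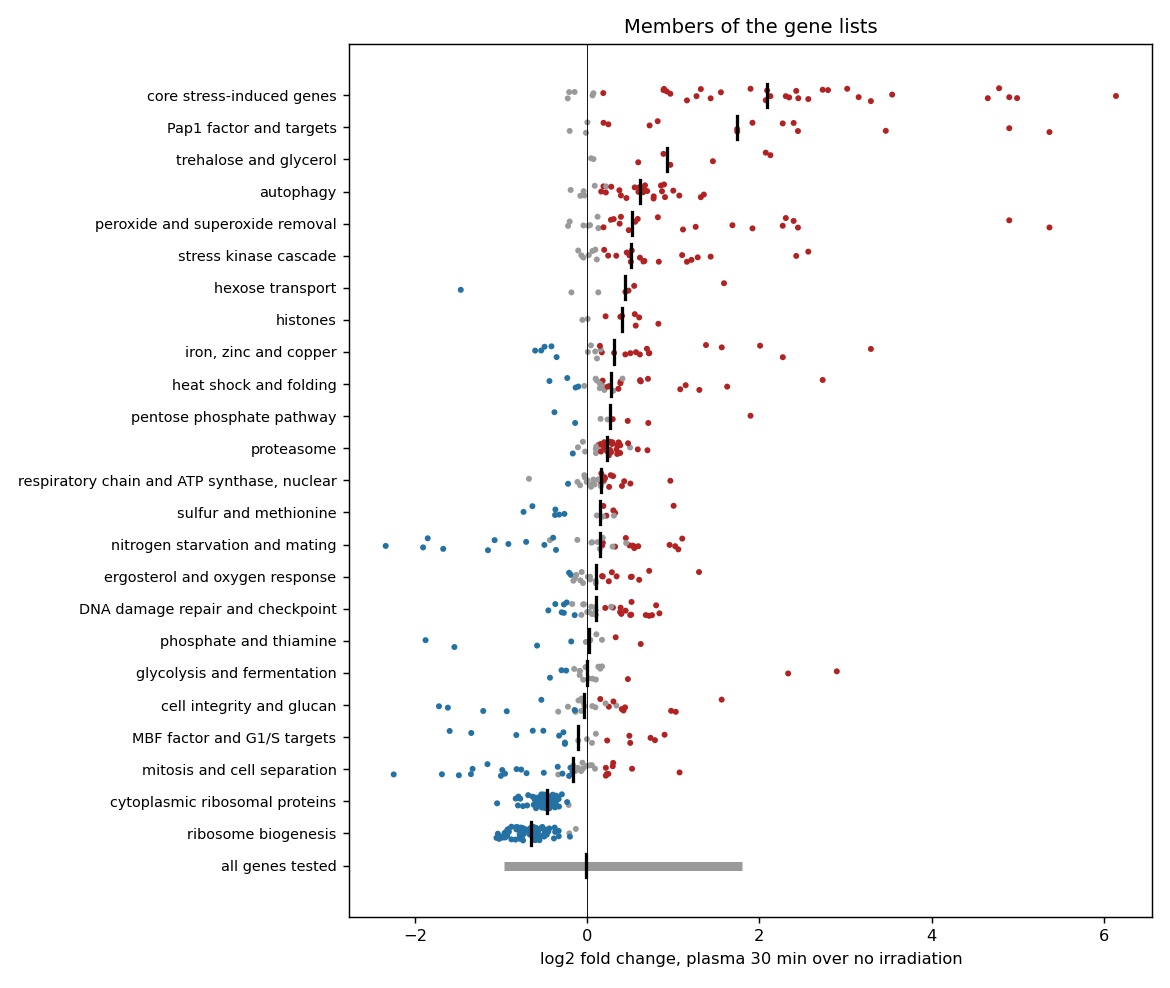
Log2 fold change of plasma 30 min over no irradiation (horizontal axis) for the tested members of each gene list, 1 point per gene in red (called higher), blue (called lower) or grey (no call), with black bars at the medians. For all genes tested the grey bar spans the central 95% of values, and the lists run from core stress-induced genes, median 2.09, to ribosome biogenesis, median -0.65.

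Within the stress kinase cascade 18 of 25 genes were higher and 0 lower (median 0.51): 4 of 6 sensor and phosphorelay genes, 4 of 7 kinases, 4 of 6 phosphatases and all 6 transcription and RNA factors tested. The phosphotransfer gene mpr1, which carries phosphate from the sensor kinases, had 249, 279 and 307 CPM at 30 min, against 122, 121 and 117 without irradiation (log2 change 1.21 ± 0.09, adjusted p = 2.85e-08). Of the sensor kinases mak1 rose (0.67 ± 0.08), while mak2 (-0.07 ± 0.08, adjusted p = 0.474) and mak3 (0.02 ± 0.07, adjusted p = 0.824) were not called. The kinases wis1 (-0.10 ± 0.08, adjusted p = 0.315) and win1 (-0.04 ± 0.10, adjusted p = 0.747), which stand above Sty1, were not called either. The kinase gene wis4 was called higher, but that call was lost with total counts (0.12, adjusted p = 0.343) and with the compared groups alone. It was also lost without any one of plasma 30 min a, b or c or control a or b. The sty1 transcript itself had 37, 28.8 and 30.6 CPM at 30 min, against 25.9, 19 and 17.7 without irradiation (log2 change 0.61 ± 0.17, adjusted p = 0.00538), although 80.9% of that gene is overlapped by another.

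The Sty1-activated kinase gene srk1, whose product restrains entry into mitosis, had 589.7, 739.7 and 813 CPM at 30 min, against 114, 129.7 and 117 without irradiation (log2 change 2.57 ± 0.14, adjusted p = 7.09e-10). The tyrosine phosphatase gene pyp2, which switches Sty1 off, had 53.2, 70.1 and 87.3 CPM at 30 min, against 11.4, 13 and 14.9 without irradiation (log2 change 2.43 ± 0.28, adjusted p = 2.41e-06). The partner phosphatase pyp1 rose less (0.46 ± 0.10). The serine/threonine phosphatase gene ptc1 had 259, 289 and 309 CPM at 30 min, against 113, 132 and 108 without irradiation (log2 change 1.28 ± 0.10, adjusted p = 4.62e-08). In these genes no irradiated library overlapped a control. Among the transcription and RNA factors, atf1 had 332, 393 and 419.6 CPM at 30 min, against 151, 208 and 153 without irradiation (log2 change 1.16 ± 0.13, adjusted p = 1.39e-06). Its partner gene pcr1 had 237, 248 and 258 CPM at 30 min, against 92.6, 97.1 and 84.7 without irradiation (log2 change 1.44 ± 0.11, adjusted p = 3.16e-08). The gene of the RNA-binding protein Vip1 rose by 1.10 ± 0.09. Csx1, which stabilises atf1 messenger RNA, had its gene up by 0.49 ± 0.11, and those of its partners Cip1 and Cip2 by 0.83 ± 0.05 and 0.51 ± 0.08.

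Of Pap1 and its targets 13 of 16 were higher and 0 lower, with a median of 1.74, and 1 was lower without plasma 30 min a or control c. The gene pap1 itself had 284, 296 and 283 CPM at 30 min, against 173, 182 and 167 without irradiation (log2 change 0.73 ± 0.05, adjusted p = 1.03e-08). All 4 transporter genes rose, and caf5, an efflux carrier of the plasma membrane, had 285, 339 and 332 CPM at 30 min, against 28.2, 29 and 29.1 without irradiation (log2 change 3.47 ± 0.15, adjusted p = 9.33e-11), with 41.3% of its length shared with a non-coding gene. The ABC efflux pump gene bfr1 had 981, 1146 and 1156 CPM at 30 min, against 297, 296 and 388 without irradiation (log2 change 1.74 ± 0.13, adjusted p = 2.15e-08). Both transporters were separated from the controls by more than 2-fold in every library. The Pap1 site, searched as TTAGTCA on both strands, stood before 6 of the 16 genes (37.5%), against 200 of all 5144 promoters (3.89%). The list is one of Pap1 targets, so this share describes the list and not the change at 30 min. Of the genes called and at least 2-fold higher 19 of 293 held the site (6.48%), and of those at least 2-fold lower 5 of 66 (7.58%). It stood before 0 of the 12 largest increases.

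The core stress-induced list, which shares members with the lists above and below, had 30 of 35 genes higher and 0 lower, with a median of 2.09, and 1 lower without plasma 30 min a. Its metallothionein gene zym1, whose product binds metal through cysteines, had 295, 353 and 332 CPM at 30 min, against 31.1, 40.2 and 28.3 without irradiation (log2 change 3.30 ± 0.14, adjusted p = 8.01e-11). SPAC4H3.03c, annotated as a glucan glucosidase, had 231, 291 and 285 CPM at 30 min, against 28.7, 33.2 and 28.8 without irradiation (log2 change 3.15 ± 0.11, adjusted p = 1.8e-11). The CRE stood before 10 of the 35 (28.6%), a share that describes this list of stress-induced genes and not the change at 30 min. Trehalose is a protective sugar and glycerol the osmolyte of this yeast, and genes for their synthesis or breakdown had 6 of 8 higher (median 0.93). Of the synthesis genes 3 of 4 were higher (median 0.93), and of the breakdown genes 3 of 4 (median 1.03). The synthase gene tps1 had 1842, 2275 and 2338 CPM at 30 min, against 390.2, 803 and 339 without irradiation (log2 change 2.08 ± 0.26, adjusted p = 4.67e-06). The trehalase gene ntp1, for the opposite reaction, had 807, 984 and 1044 CPM at 30 min, against 176, 321 and 151 without irradiation (log2 change 2.13 ± 0.23, adjusted p = 1.13e-06). In both genes control b was about 2-fold above the other controls and still below every irradiated library. Of the glycerol phosphate dehydrogenases gpd1 rose (0.97 ± 0.13) and gpd2 was not called (0.07 ± 0.06, adjusted p = 0.269).

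In the oxidative branch of the pentose phosphate pathway 3 of 4 genes rose. The glucose 6-phosphate dehydrogenase gene zwf1, the first source of NADPH there, had 2511, 2697 and 2674 CPM at 30 min, against 710.3, 718 and 687 without irradiation (log2 change 1.90 ± 0.08, adjusted p = 7.24e-11). The gene of the next dehydrogenase, gnd1, rose by 0.71 ± 0.12. The other branch had 1 of 4 genes higher and 2 lower, and the list's lower count was 1 without plasma 30 min a or c or control a or b. Glycolysis and fermentation genes had 3 of 18 higher and 3 lower (median 0.00), with 6 higher and 1 lower without control b and 1 lower without plasma 30 min a. The enolase copy eno102, overlapped over 78.5% of its length, rose by 2.90 ± 0.22. The alcohol dehydrogenase gene adh8 had 212, 230.1 and 226 CPM at 30 min, against 44.5, 42.6 and 45.3 without irradiation (log2 change 2.33 ± 0.16, adjusted p = 8.98e-09). Of 7 hexose transporter genes 4 were higher and 1 lower, with 2 higher without plasma 30 min a or control a and 2 lower without control b. The gene ght2 had 603, 706 and 785 CPM at 30 min, against 208, 286 and 201 without irradiation (log2 change 1.59 ± 0.15, adjusted p = 2.12e-07). By contrast ght5, a high-affinity carrier, had 24.5, 26.9 and 28.8 CPM at 30 min, against 69.3, 64.1 and 88.9 without irradiation (log2 change -1.47 ± 0.15, adjusted p = 4.73e-07). The first lay above all controls and the second below all of them.

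Chaperone genes were mixed, with 15 of 28 higher and 4 lower (median 0.28), and control library b stood apart from a and c. The small heat shock protein gene hsp16 had 462, 701 and 636 CPM at 30 min, against 61.8, 150.1 and 57.9 without irradiation (log2 change 2.74 ± 0.35, adjusted p = 7.7e-06). The Hsp70 gene ssa1 had 727, 1322 and 1393 CPM at 30 min, against 182, 763 and 168 without irradiation (log2 change 1.63 ± 0.48, adjusted p = 0.00883). The disaggregase gene hsp104 had 609.9, 891 and 893 CPM at 30 min, against 209, 737 and 185 without irradiation (log2 change 1.08 ± 0.39, adjusted p = 0.0273). For ssa1 and hsp104 control b lay above plasma 30 min library a, so the groups overlapped, and the call on hsp104 was lost without plasma 30 min b or c or control a or c. Without control b the log2 fold changes were 3.34 for hsp16, 2.73 for ssa1, 2.03 for hsp104 and 1.92 for the Hsp40 gene psi1 (main value 1.30 ± 0.29), and 22 of the 28 genes were higher and 2 lower. The lower count was 2 also without control a or plasma 30 min b or c, and the higher count was 10 without control a and 10 without control c. Going the other way, the ribosome-associated Hsp70 gene sks2 had 3829, 4287 and 4300.3 CPM at 30 min, against 5314, 5725 and 5769.9 without irradiation (log2 change -0.44 ± 0.09, adjusted p = 0.000597). The gene of the heat shock factor, hsf1, had 346, 382 and 394 CPM at 30 min, against 231, 221 and 236 without irradiation (log2 change 0.71 ± 0.07, adjusted p = 7.94e-07). The heat shock element, a set of alternating GAA and TTC units, was searched on both strands. It stood before 3 of the 28 (10.7%), against 22 of 5144 promoters (0.428%). The list is one of heat shock and folding genes, so this share describes the list and not the change at 30 min. Of the genes called and at least 2-fold higher 1 of 293 held the element (0.341%), and of those at least 2-fold lower 1 of 66 (1.52%).

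Most proteasome and autophagy genes tested rose. Proteasome subunits had 30 of 40 higher and 1 lower with a median of only 0.23, and the number higher was 19 without control a and 19 without control c, while 0 were lower without plasma 30 min a or b or control b. The core particle gene pre9 had 427, 439 and 422 CPM at 30 min, against 267, 278 and 247 without irradiation (log2 change 0.70 ± 0.06, adjusted p = 4.62e-08). Autophagy genes, which build the vesicle that carries cell contents to the vacuole, had 27 of 33 higher and 0 lower (median 0.61). The initiating kinase gene atg1 had 98.4, 112 and 107 CPM at 30 min, against 51.4, 46.6 and 61.2 without irradiation (log2 change 1.0 ± 0.09, adjusted p = 1.17e-07). The gene atg8, for the ubiquitin-like protein that coats the vesicle, had 89.1, 87.5 and 92.1 CPM at 30 min, against 58.3, 60.7 and 51.9 without irradiation (log2 change 0.65 ± 0.05, adjusted p = 7.4e-08). The libraries of these genes did not overlap between groups. The receptor gene nbr1 rose by 0.87 ± 0.07 and the scaffold gene atg13 by 0.86 ± 0.05.

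Metal genes had 15 of 25 higher and 5 lower (median 0.31). Siderophore and haem genes, which bring in or make iron carriers, had 6 of 9 higher and 1 lower. The siderophore transporter gene str1 had 482, 483 and 507 CPM at 30 min, against 192, 162 and 211 without irradiation (log2 change 1.38 ± 0.09, adjusted p = 1.03e-08). The siderophore synthesis gene sib2 had 319.7, 360.4 and 371 CPM at 30 min, against 81.2, 94.2 and 85.9 without irradiation (log2 change 2.01 ± 0.08, adjusted p = 4.71e-11). The haem transporter gene shu1 had 2.97, 3.42 and 2.76 CPM at 30 min, against 0.689, 0.56 and 0.628 without irradiation (log2 change 2.27 ± 0.25, adjusted p = 1.54e-06). None of these 3 had overlapping groups. Of 4 genes of reductive iron uptake 1 was higher and 1 lower. The ferroxidase gene fio1 had 48.9, 45.4 and 42.1 CPM at 30 min, against 64.8, 68.2 and 74.4 without irradiation (log2 change -0.60 ± 0.11, adjusted p = 0.000217). Its permease partner fip1 was not called (0.01 ± 0.11, adjusted p = 0.954). The copper transporter gene ctr4 had 338, 356 and 334 CPM at 30 min, against 474, 472 and 501 without irradiation (log2 change -0.49 ± 0.05, adjusted p = 4.33e-07). Its partner ctr5, overlapped over 44.3% of its length, also fell (-0.35 ± 0.06), while the vacuolar copper transporter gene ctr6 rose (0.72 ± 0.06). The zinc transporter gene zrt1 had 114, 129 and 128 CPM at 30 min, against 163, 138 and 195 without irradiation (log2 change -0.41 ± 0.12, adjusted p = 0.00667).

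Genes for making ribosomes fell. Of 80 ribosome biogenesis genes tested 78 were lower and 0 higher, with a median of -0.65 and a range from -1.05 to -0.13. The large subunit assembly gene rrs1 had 51.7, 47.9 and 47.1 CPM at 30 min, against 109.5, 96.4 and 98.3 without irradiation (log2 change -1.05 ± 0.08, adjusted p = 2.41e-08). The gene nop2, for a methyltransferase of ribosomal RNA, had 175, 168 and 170.3 CPM at 30 min, against 351, 329 and 362 without irradiation (log2 change -1.02 ± 0.07, adjusted p = 1.95e-08), with 60.0% of its length overlapped by another gene. Of the genes listed for RNA polymerase I, which transcribes ribosomal RNA, 5 of 6 fell, and rpa12 had 46.9, 44.2 and 47.6 CPM at 30 min, against 93.5, 87.4 and 88.5 without irradiation (log2 change -0.96 ± 0.06, adjusted p = 5.36e-09). The 3 irradiated libraries lay below every control in each of these genes.

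Ribosomal protein genes fell nearly without exception but by less: 113 of 114 tested were lower and 0 higher, with a median of -0.47. The largest decrease was that of rps2202, for a small subunit protein, which had 455, 453 and 449 CPM at 30 min, against 926, 1025 and 849 without irradiation (log2 change -1.05 ± 0.07, adjusted p = 3.66e-09). The large subunit gene rpl3002 had 92.4, 82 and 82.3 CPM at 30 min, against 145, 169 and 141 without irradiation (log2 change -0.83 ± 0.08, adjusted p = 2.03e-07). Many of these genes come in near-identical pairs, and how reads shared by both copies were counted is not given in the sources used here. The HomolD box, searched as CAGTCACA on both strands, stood before 76 of the 114 genes (66.7%), against 134 of all 5144 promoters (2.6%) and 0 of the 80 ribosome biogenesis genes. Windows free of other annotated genes are printed for rpl3002, where the box is read on the reverse strand, and for rpl2301 (-0.61 ± 0.13), where it is read forwards, with the box in capitals, to show the element that most of the ribosomal protein genes share and the ribosome biogenesis genes lack in this window. The second gene was chosen for its box after its values were seen.
rpl3002 (chrI:5095880-5096129, minus strand): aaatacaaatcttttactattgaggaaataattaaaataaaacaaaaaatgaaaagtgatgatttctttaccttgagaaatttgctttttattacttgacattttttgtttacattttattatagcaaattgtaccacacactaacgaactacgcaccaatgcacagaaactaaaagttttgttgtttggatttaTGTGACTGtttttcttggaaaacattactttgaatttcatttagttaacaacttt
rpl2301 (chrI:3180004-3180253, minus strand): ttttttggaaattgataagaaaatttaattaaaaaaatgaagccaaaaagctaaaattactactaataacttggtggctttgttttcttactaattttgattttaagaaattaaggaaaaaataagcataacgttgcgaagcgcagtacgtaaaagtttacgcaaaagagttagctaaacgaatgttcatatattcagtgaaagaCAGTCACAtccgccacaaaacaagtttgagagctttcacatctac
The box begins 55 bases before the start in rpl3002 and 45 before it in rpl2301, and in both the RefSeq start lies inside the gene as counted and the box outside it.

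The 12 largest decreases were led by SPBC19G7.04, annotated as a repair protein for protein-DNA cross-links, which had 7.07, 7.73 and 8.05 CPM at 30 min, against 40.7, 50.4 and 39 without irradiation (log2 change -2.51 ± 0.14, adjusted p = 8.91e-10). SPBC27.05, an uncharacterized protein, had 5.11, 6.57 and 7.93 CPM at 30 min, against 24.7, 23.3 and 23.8 without irradiation (log2 change -1.87 ± 0.18, adjusted p = 2.76e-07). No library at 30 min came near a control in either gene. Others of the 12 are largely overlapped by another gene, namely spo12 (-2.10 ± 0.17, 70.6% of its length), the septation gene uds1 (-1.96 ± 0.19, 99%), SPBC31F10.17c (-1.89 ± 0.12, 51.6%) and pho84, described with the phosphate genes.

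In the list of mitosis and cell separation, which includes slp1 of those 12, 18 of 38 genes were lower and 8 higher (median -0.17), or 4 higher with total counts in place of TMM. The activator of the anaphase-promoting complex, slp1, had 73, 85.5 and 87.9 CPM at 30 min, against 376, 419 and 374 without irradiation (log2 change -2.25 ± 0.11, adjusted p = 4.23e-10). The contractile ring gene cdc15 had 117, 126 and 116 CPM at 30 min, against 261, 268 and 272 without irradiation (log2 change -1.16 ± 0.07, adjusted p = 2.73e-09), and pxl1, also of the ring, changed by -1.69 ± 0.09. No library overlapped the other group in these 3 genes. Of the genes for parting the daughter cells 5 of 6 were lower. The septum glucanase gene eng1 had 248, 294 and 337 CPM at 30 min, against 622, 726 and 860.4 without irradiation (log2 change -1.33 ± 0.13, adjusted p = 6.01e-07). The chitinase gene cts2, not on the list but among the 12 largest decreases, had 133, 173 and 173 CPM at 30 min, against 466, 575 and 606 without irradiation (log2 change -1.78 ± 0.15, adjusted p = 9.91e-08). Of the forkhead genes on this list fkh2 had 58.1, 58.9 and 58.1 CPM at 30 min, against 106, 118 and 115 without irradiation (log2 change -0.95 ± 0.06, adjusted p = 5.82e-09). The other on the list, sep1, had 179.8, 181 and 186 CPM at 30 min, against 89.5, 74.7 and 95.8 without irradiation (log2 change 1.07 ± 0.07, adjusted p = 1.03e-08).

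The forkhead site, searched as GTAAACA on both strands, stood before 14 of the 38 genes of the list (36.8%), before 6 of the 12 largest decreases and before 23 of the 66 genes called and at least 2-fold lower (34.8%), against 760 of 5144 (14.8%). Among genes called and at least 2-fold higher 33 of 293 held it (11.3%). It was also frequent in the Pap1 list, which rose, with 5 of 16 (31.2%), and stood before 27 of the 114 ribosomal protein genes (23.7%).

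Cell integrity and glucan genes had 9 of 28 higher and 6 lower (median -0.04). The glucanase gene exg1 had 210.2, 225 and 242 CPM at 30 min, against 707, 791 and 733 without irradiation (log2 change -1.72 ± 0.11, adjusted p = 4.73e-09). The gene gas1, whose enzyme elongates glucan, had 676, 759.5 and 749.6 CPM at 30 min, against 2083, 2248 and 2373 without irradiation (log2 change -1.62 ± 0.09, adjusted p = 8.91e-10). The kinase gene mkh1 of the cell integrity pathway had 143, 158 and 161 CPM at 30 min, against 80.3, 74.1 and 80.4 without irradiation (log2 change 0.98 ± 0.06, adjusted p = 1.39e-09). The first pair lay below all controls and mkh1 above them. Targets of MBF, the G1/S factor, had 2 of 12 higher and 7 lower, while its subunits and regulators had 4 of 7 higher and 2 lower. The mitotic inhibitor kinase gene mik1 had 28.4, 30.8 and 33.8 CPM at 30 min, against 91.5, 99.8 and 89.8 without irradiation (log2 change -1.60 ± 0.10, adjusted p = 4.9e-09). The gene cdt2, for the adaptor of a ubiquitin ligase acting in S phase, had 189, 203 and 197 CPM at 30 min, against 104, 108 and 104 without irradiation (log2 change 0.90 ± 0.05, adjusted p = 2.8e-09). The MCB, searched as ACGCGT, stood before 7 of the 19 MBF genes (36.8%), against 135 of 5144 (2.62%). The list includes MBF targets, so this share describes the list and not the change at 30 min. Of the genes called and at least 2-fold lower 6 of 66 held the MCB (9.09%), and of those at least 2-fold higher 6 of 293 (2.05%). Of the histone genes 7 of 9 were higher and 0 lower (median 0.41). The histone H3 gene hht3 had 1162, 1190.2 and 1221 CPM at 30 min, against 653, 718 and 642 without irradiation (log2 change 0.83 ± 0.10, adjusted p = 2.68e-06).

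Nitrogen use and mating genes went both ways, with 13 of 33 higher and 11 lower (median 0.15). The uracil-regulated gene urg1 had 122, 119 and 106 CPM at 30 min, against 665, 399 and 688 without irradiation (log2 change -2.34 ± 0.19, adjusted p = 4.7e-08). Its relative urg2 had 147, 138 and 122 CPM at 30 min, against 549, 406 and 572 without irradiation (log2 change -1.90 ± 0.16, adjusted p = 7.46e-08), and urg3 changed by -1.07 ± 0.08. Control b was the lowest control in all 3 and still above every irradiated library. The ammonium transporter gene amt1 had 254, 219 and 202 CPM at 30 min, against 100.4, 91.9 and 122 without irradiation (log2 change 1.10 ± 0.11, adjusted p = 6.18e-07). The amino acid permease gene cat1 had 234, 228 and 223 CPM at 30 min, against 109.5, 93.4 and 125 without irradiation (log2 change 1.06 ± 0.08, adjusted p = 3.39e-08). Of the switch to mating, the transcription factor gene ste11 had 8.98, 8.34 and 9.61 CPM at 30 min, against 18.7, 19.4 and 21.7 without irradiation (log2 change -1.15 ± 0.10, adjusted p = 8.1e-08). The gene mei2, for the RNA-binding protein that starts meiosis, had 3.45, 2.71 and 2.64 CPM at 30 min, against 10.1, 10.4 and 11.3 without irradiation (log2 change -1.85 ± 0.15, adjusted p = 6.05e-08). The kinase gene pat1, which holds both in check, had 50.6, 49.6 and 45.1 CPM at 30 min, against 23, 23.6 and 28.6 without irradiation (log2 change 0.96 ± 0.10, adjusted p = 6.87e-07).

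Among the other lists, sterol and oxygen genes had 10 of 23 higher and 2 lower (median 0.10), with 1 lower without plasma 30 min b or c, 0 lower without control b and 4 lower with total counts. The gene sre1, for the membrane-bound factor that senses sterol and oxygen, had 347, 390.3 and 377 CPM at 30 min, against 147, 117 and 189 without irradiation (log2 change 1.30 ± 0.12, adjusted p = 2.05e-07). Sulfur genes had 5 of 14 higher and 6 lower (median 0.15). The sulfate transporter gene sul1 had 302, 320.2 and 319 CPM at 30 min, against 156, 136 and 177 without irradiation (log2 change 1.01 ± 0.09, adjusted p = 1.09e-07). The gene sam1, for S-adenosylmethionine synthetase, had 1609.5, 903 and 938 CPM at 30 min, against 1860.3, 2120.4 and 1774 without irradiation (log2 change -0.74 ± 0.16, adjusted p = 0.00111). In sam1 library a at 30 min was well above b and c, and all 3 lay below the controls. DNA repair and checkpoint genes had 14 of 33 higher and 7 lower (median 0.10). The endonuclease gene uve1 had 181, 204 and 214 CPM at 30 min, against 112, 109 and 113 without irradiation (log2 change 0.84 ± 0.07, adjusted p = 9.09e-08). The recombination gene rad54 rose by 0.75 ± 0.08 and the checkpoint kinase gene cds1, overlapped over 46.9% of its length, by 0.68 ± 0.07. The other checkpoint kinase gene, chk1, changed by -0.45 ± 0.08, with 58.7% of its length overlapped. Nuclear genes of the respiratory chain and ATP synthase had 13 of 31 higher and 1 lower (median 0.16), with 7 higher without control a, 8 without control c, 8 without plasma 30 min c, 7 with total counts and 21 without control b, and 2 lower without control c. The largest increase there was that of inh1, which inhibits the ATP synthase, with 174, 159 and 168 CPM at 30 min, against 81.6, 96 and 78.5 without irradiation (log2 change 0.97 ± 0.07, adjusted p = 3.08e-08).

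Phosphate and thiamine genes had 2 of 11 higher and 4 lower (median 0.03), or 4 higher without control c. The phosphate transporter gene pho84 had 8.62, 5.41 and 5.47 CPM at 30 min, against 28.9, 17.3 and 25.3 without irradiation (log2 change -1.88 ± 0.22, adjusted p = 2.74e-06), in a stretch overlapped over 89%. Of 693 non-coding RNA genes tested 121 were higher and 125 lower (median -0.08), and of 7 Tf2 retrotransposons 2 were higher, 1 without plasma 30 min a, and 0 lower. The non-coding gene SPNCRNA.1505 had 27.6, 33.1 and 35.4 CPM at 30 min, against 0.184, 0.408 and 0.0 without irradiation, and 95.9% of it overlaps other genes. It was chosen after its values were seen. Of 11 mitochondrially encoded genes 0 were called in either direction by edgeR or by DESeq2, 0 had an unadjusted p under 0.05 with either tool, and the median was 0.04.

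Whether the state at 30 min differed from the earlier times was tested directly between the times, since the changes over no irradiation at 10, 15 and 30 min share the same control libraries. Against 15 min, 785 genes were higher at 30 min (15.1% of those tested) and 713 lower (13.7%). Against 10 min the numbers were 1035 higher (19.9%) and 986 lower (18.9%). Differences of at least 2-fold were few, with 49 genes higher and 55 lower than at 15 min (0.94% and 1.05%) and 112 higher and 80 lower than at 10 min (2.15% and 1.53%). Scaling by total counts alone left 378 genes higher and 906 lower than at 15 min, and 712 higher and 1039 lower than at 10 min, so the balance of directions between times changed with the scaling. Without plasma 30 min b 471 genes were lower than at 15 min.

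Many stress genes were higher at 30 min than earlier. Of the peroxide and superoxide list 15 of 26 were higher than at 15 min and 20 higher than at 10 min, with 0 lower in both. The log2 fold change of ctt1 over no irradiation was 3.56 (10 min), 4.37 (15 min) and 4.90 (30 min), and 30 min exceeded 15 min by 0.53 ± 0.16, adjusted p = 0.0212. That of srx1 was 4.44 (10 min), 5.46 (15 min) and 5.37 (30 min), with no call between 30 and 15 min (-0.09 ± 0.08, adjusted p = 0.399). For bcp1 the values were -0.07 (10 min), -0.01 (15 min) and 0.56 (30 min), so it was called at 30 min and at neither earlier time, and the difference from 15 min was 0.57 ± 0.07, adjusted p = 2.59e-05. The metallothionein gene zym1 had 78.3, 108 and 89.5 CPM at 10 min, 117, 148 and 134 at 15 min and 295, 353 and 332 at 30 min (30 over 15 min 1.29 ± 0.13, adjusted p = 6.43e-06). The gene rib4, for a late step of riboflavin synthesis, had 110.3, 128 and 123 CPM at 10 min, 303, 189 and 207 at 15 min and 545, 603 and 542 at 30 min, against 109, 117 and 103 without irradiation (30 over 15 min 1.27 ± 0.13, adjusted p = 7.91e-06). Among the plasma times and the controls, both genes were highest in the 30 min libraries. The adaptor gene cdt2 had -0.01 (10 min), 0.09 (15 min) and 0.90 (30 min), and 30 min exceeded 15 min by 0.81 ± 0.05, adjusted p = 2.03e-07.

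Other stress genes were lower at 30 min than earlier. The phosphatase gene pyp2 had 351, 329 and 291 CPM at 10 min, 84.3, 208 and 186 at 15 min and 53.2, 70.1 and 87.3 at 30 min (30 over 10 min -2.20 ± 0.25, adjusted p = 8.07e-06). The transporter gene SPCC794.04c had 73, 89.3 and 71.6 CPM at 10 min, 45.1, 88 and 72.1 at 15 min and 16.6, 17.3 and 25.3 at 30 min, against 4.22, 4.89 and 4.02 without irradiation (30 over 15 min -1.80 ± 0.20, adjusted p = 2.12e-05). At 30 min both were still above every control library. For wwm3 the changes were 5.87 (10 min), 5.13 (15 min) and 4.78 (30 min), and 30 min lay below 10 min by test (-1.09 ± 0.21, adjusted p = 0.000835). The hexose transporter gene ght2 changed by 2.24 (10 min), 2.15 (15 min) and 1.59 (30 min) (30 over 10 min -0.65 ± 0.14, adjusted p = 0.00223).

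**Figure D5:**
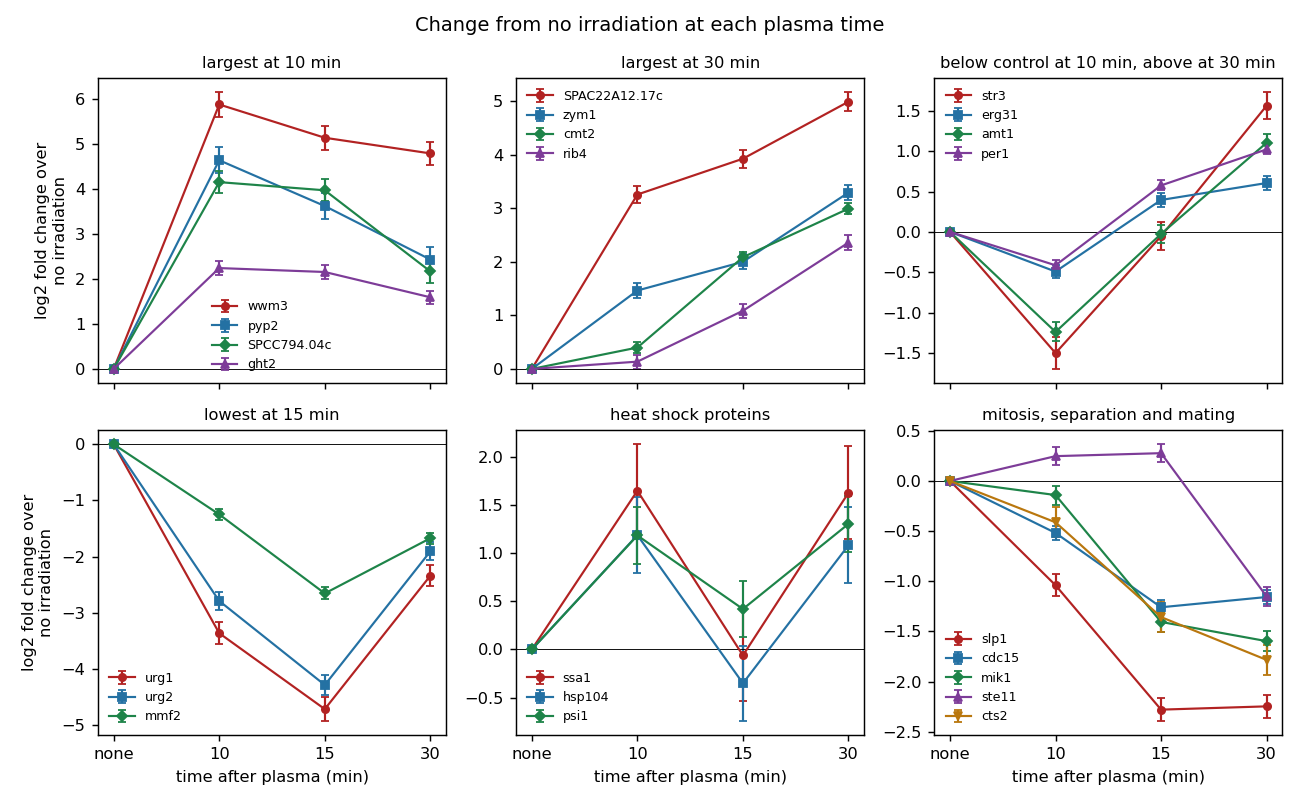
Log2 fold change over no irradiation (vertical axis, error bars ± SE) without irradiation (set to 0) and at 10, 15 and 30 min after plasma (evenly spaced on the horizontal axis), in 6 groups of genes chosen by their pattern. At 30 min pyp2 is below and zym1 above its earlier values, and urg1 and urg2 are less far below the controls than at 15 min.

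Some genes were lower at 15 min than at 30 min. The gene urg1 had 54.1, 72.1 and 44.6 CPM at 10 min, 20.6, 21 and 25.1 at 15 min and 122, 119 and 106 at 30 min (30 over 15 min 2.37 ± 0.19, adjusted p = 1.03e-06). Of the same set, urg2 differed by 2.38 ± 0.17, adjusted p = 3.35e-07, and mmf2, annotated for isoleucine synthesis, by 0.98 ± 0.11, adjusted p = 2.5e-05. All 3 were nevertheless below every control at 30 min. The iron permease gene fip1, not called at 30 min, had changes of -1.54 (10 min), -1.11 (15 min) and 0.01 (30 min) (30 over 15 min 1.12 ± 0.11, adjusted p = 7.62e-06). Among chaperone genes ssa1 and hsp104 were called higher than the controls at 10 and 30 min and not called at 15 min. The gene ssa1 had 897, 1629.9 and 965 CPM at 10 min, 209.5, 473 and 384 at 15 min and 727, 1322 and 1393 at 30 min (30 over 15 min 1.69 ± 0.48, adjusted p = 0.0171). Likewise hsp104 changed by 1.19 (10 min), -0.35 (15 min) and 1.08 (30 min) (30 over 15 min 1.43 ± 0.40, adjusted p = 0.0145). Both genes also varied within each time, with library a the lowest at 15 and 30 min.

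In the ribosome lists 37 of 80 ribosome biogenesis genes and 13 of 114 ribosomal protein genes were lower than at 15 min and 0 were higher, and 53 and 30 were lower than at 10 min. Over all genes tested 13.7% were lower than at 15 min and 18.9% lower than at 10 min. The 13 of 114 ribosomal protein genes are thus near the share over all genes. The rpa12 gene changed by -0.13 (10 min), -0.27 (15 min) and -0.96 (30 min) (30 over 15 min -0.69 ± 0.06, adjusted p = 2.91e-06). In the mitosis and separation list 19 of 38 were lower than at 10 min and 5 lower than at 15 min, the latter again near the share over all genes. The slp1 gene changed by -1.04 (10 min), -2.28 (15 min) and -2.25 (30 min), with no call between 30 and 15 min (0.03 ± 0.11, adjusted p = 0.85). The mik1 gene changed by -0.14 (10 min), -1.40 (15 min) and -1.60 (30 min) and was first called at 15 min. The mating factor gene ste11 had 23.4, 24.2 and 23.3 CPM at 10 min, 26.1, 25.3 and 21.2 at 15 min and 8.98, 8.34 and 9.61 at 30 min (30 over 15 min -1.43 ± 0.10, adjusted p = 2.03e-07). The libraries at 30 min alone lay below the controls. Of the mitochondrially encoded genes 5 of 11 were higher than at 15 min. These genes took 0.169%, 0.135% and 0.048% of counts at 30 min, 0.0728%, 0.0191% and 0.0114% at 15 min and 0.196%, 0.118% and 0.0397% without irradiation, and ribosomal RNA genes, which the mRNA library kit is meant to deplete, took 1.02%, 0.742% and 0.22% at 30 min and 0.33%, 0.0849% and 0.0485% at 15 min. The part of ribosomal RNA carry-over in that difference was not tested.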

How the data were processed

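Messenger RNA was sequenced from S. pombe, with the TruSeq stranded mRNA kit after hot phenol extraction, per the labels' protocols. The submitters' processing notes name HISAT2 2.2.1, SAMtools 1.13 and the build R64, a name of the budding yeast genome. The deposited values are raw counts per gene, made with featureCounts 2.0.1 over transcript features with no strand option set, per the file headers. Of 6998 identifiers 6852 matched RefSeq, and 6824 of these share a start or end with it.

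All 15 libraries were fitted together with 1 mean per group in edgeR 4.0.16 (R 4.3.3, limma 3.58.1), with its expression filter, TMM scaling and the quasi-likelihood F-test, called at a Benjamini-Hochberg adjusted p under 0.05. The common biological coefficient of variation was 8.8%, and totals ran from 14691752 to 23232575 counts. SE is the absolute log2 fold change over the square root of F. The fit was tested on simulated data. DESeq2 1.42.0, other scalings, filters, groups, a library letter block and each library left out were alternatives.

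The genes, lists and tests were chosen with earlier results of these data known. Genes named are the 12 largest changes each way at 30 min, the 6 each way against 15 and 10 min, the 2 smallest p in each role of a list with members that went against their role, and every member of 7 short lists. No library letter could be tied to a replicate number in the labels. Between 30 and 10 min same-letter libraries deviated together, with correlations of 0.227, 0.124 and 0.166. Between 30 and 15 min the same-letter values were 0.196, -0.0571 and 0.249, so the b libraries did not. Hydrogen peroxide libraries entered the fit only.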

Additional observations from a re-analysis of the deposited data

Results flagged for a closer look

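Among the genes named, 8 were called in one direction over no irradiation at 30 min and in the other at an earlier time. They also differed at least 2-fold between the times, with an adjusted p under 0.05 in edgeR's quasi-likelihood test. Smaller differences were not counted. The changes over no irradiation share the same control libraries, so the test used is the one between the times.

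The siderophore transporter gene str3 differed by a log2 fold of 3.07 between 30 and 10 min, with 1.56 over no irradiation at 30 min and -1.50 at 10 min. The ammonium transporter gene amt1 differed by 2.35 between 30 and 10 min, with 1.10 at 30 min and -1.24 at 10 min. SPAC186.06, annotated as an isomerase, differed by 3.31, with 2.59 at 30 min and -0.71 at 10 min. The amino acid permease gene per1 differed by 1.44 (1.02 at 30 min and -0.41 at 10 min), and isp4, an oligopeptide transporter, by 1.02 (0.33 and -0.69). The isp4 call at 30 min was lost without any one of plasma 30 min a or control a or c. It was also lost with total counts, with a filter of 1 CPM in at least 3 libraries, with the compared groups alone and without the hydrogen peroxide libraries. The sterol synthesis gene erg31 differed by 1.10 (0.61 at 30 min and -0.49 at 10 min).

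In the opposite sense, ste11, the mating transcription factor gene, differed by -1.43 between 30 and 15 min and by -1.40 between 30 and 10 min, with -1.15 over no irradiation at 30 min, 0.28 at 15 min and 0.25 at 10 min. The gene wtf6 differed by -1.28 between 30 and 10 min, with -0.71 at 30 min and 0.57 at 10 min.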

How the results depend on the processing

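Against no irradiation, 1616 genes were higher and 1510 lower at 30 min, and the 2 counts stayed within 1.5 times of this under each alternative tried: leaving out each library gave 1468 to 1667 higher and 1335 to 1475 lower, and the compared groups alone gave 1437 and 1388. Against 15 min, 378 genes were higher with total counts, and with an adjusted p under 0.01 the counts were 483 higher and 351 lower, while leaving out each library gave 574 to 670 higher and 471 to 577 lower. Against 10 min, an adjusted p under 0.01 gave 627 lower, and leaving out each library gave 863 to 1095 higher and 716 to 919 lower. The stricter threshold accounts for its own smaller counts, and the cause of the other shifts was not tested. Of 275 named genes 26 lost and 12 gained a call without some single library, and 0 reversed under any alternative. As the replicate block, the library letter gave 1637 higher and 1527 lower against no irradiation, 837 and 763 against 15 min and 1092 and 1025 against 10 min. With that block trx2 (adjusted p = 0.0312) and map4 (adjusted p = 0.0208) gained a call and scj1 (adjusted p = 0.0646) lost one at 30 min against no irradiation. The same-letter correlations of deviations were 0.305, 0.0873 and 0.249 there, and since 1 of them is under 0.1 the letter was not used as a pairing. In that comparison each library correlated best with its own letter, which is a hint from the data and not from the design. Against 15 min this did not hold for plasma 30 min b, at -0.0571 with b and 0.0957 with a. Limits are 3 libraries a group, 1 strain, a control with no stated time, and counting without strand, in which 151 of the named genes overlap another gene.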
